A study of Homo sapiens with 6 samples.

Results

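Steady-state RNA of HEK293 cells was compared after transfection with a MOV10 siRNA and after mock transfection. HEK293 is a human embryonic kidney cell line with many neuronal transcripts. The comparison uses the total RNA columns of the study's expression table, that is 4 of its 12 expression columns and all 7682 genes it lists, with replicates 1 and 2 of each condition in the header. The control is labelled as mock-transfected, and cells with a non-targeting siRNA were not analysed here. Both groups had been labelled with 700 µM 4-thiouridine (4sU), a uridine analogue taken up into new RNA, for 60 min before RNA was extracted. Poly(A)+ libraries were made from the total RNA, from the biotinylated 4sU-labelled RNA held on streptavidin beads, and from the unlabelled RNA that flowed through. The last 2 fractions came from the same cells as the total RNA and serve here only as values beside it. The public record lists 1 sample per group, and whether replicates 1 and 2 were separate cultures is not stated, so the p-values below reflect the scatter of these columns alone, which may be technical.

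MOV10 is an RNA helicase that moves along RNA in the 5′ to 3′ direction, binds 3′ untranslated regions (3′ UTRs) and associates with UPF1, the central helicase of nonsense-mediated mRNA decay. It is also known as a partner of Argonaute proteins, which carry microRNAs, and as a restriction factor of retroelements and retroviruses. The abundance of an mRNA at steady state is set by its synthesis and its decay together. Total RNA values therefore report the outcome of both, whereas labelled RNA mostly reports recent synthesis.

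The table gives a normalised expression signal with no unit named in its header, none below 1.00, so the depth behind each column is unknown and no counting interval can be given. Whether the values are scaled by gene length is not stated, so ranks of genes by value below are ranks of the deposited values and not of RNA copies. Over genes, the Spearman correlation was 0.994 between the mock columns and 0.995 between the siRNA columns, and between 0.977 and 0.981 across conditions. Changes below are differences of mean log2(value + 1), siRNA minus mock, relative to the median gene of each column, which understates changes of low genes. The uncentred change of the median gene was -0.013, with 0.040 in replicate 1 and -0.063 in replicate 2. Tests are limma's moderated test over all 7682 genes with Benjamini-Hochberg adjustment and a threshold of 0.05, called the limma adjusted p. A call given as lost without a column did not pass when that column alone was left out, and the highest limma adjusted p so obtained stands beside it. With 2 columns against 2, an exact permutation test of 1 gene cannot go below p = 0.333. In bulk RNA, fewer cells that express a gene and less of its RNA per cell cannot be told apart.

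The labelled cell type was checked first. Of 20 markers of the HEK293 line, 12 were among the table's genes, among them the neurofilament gene NEFL, at 21.8 and 24.7 (mock) and 24.4 and 23.5 (siRNA), and the vimentin gene VIM, at 217 and 249 (mock) and 214 and 214 (siRNA). Of markers of other cell types, the table listed 1 of 14 for blood and immune cells (the haemoglobin gene HBA1), 2 of 13 for kidney tubule and glomerulus (WT1 and PODXL), and none of 8 for endothelium, 10 for fibroblasts or 8 for hepatocytes. HBA1, at 14.5 and 18.5 (mock) and 18.5 and 19.1 (siRNA), and PODXL, at 8.67 and 8.53 (mock) and 8.55 and 8.33 (siRNA), did not pass the test, nor did WT1. HBA1 passed without mock replicate 2 (change 0.34, limma adjusted p = 0.0173).

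Was the targeted mRNA lower, and did that of UPF1 differ? MOV10 was at 13.1 and 14.6 (mock) and 3.53 and 3.64 (siRNA). Both siRNA columns lay far below both mock columns, a 3.86-fold lower mean and a centred change of -1.67 (SE 0.086, n = 2 columns each, limma adjusted p = 8.69e-07). It was the fifth largest drop in the table. In labelled RNA, MOV10 was at 2.95 and 3.196 (mock) and 2.55 and 2.63 (siRNA) (change -0.30, limma adjusted p = 0.0404), and in the flow-through at 19.6 and 19.3 (mock) and 5.13 and 5.38 (siRNA) (change -1.68, limma adjusted p = 7.98e-05). The total RNA drop exceeded the labelled one by more than the spread between columns (difference -1.37, SE 0.12, limma adjusted p = 0.000142). UPF1 was at 25.2 and 30.8 (mock) and 30.8 and 30.6 (siRNA). The higher mock column of UPF1 overlapped the siRNA columns, and the change of 0.16 did not pass (SE 0.080, limma adjusted p = 0.178). Without mock replicate 2, the higher of the mock columns, the UPF1 change was 0.26 with limma adjusted p = 0.0292.

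How many mRNAs changed in abundance? Of 7682 genes, 891 rose (11.6%), 1023 fell (13.3%) and 5768 did not pass. The rises were 448 without siRNA replicate 1, 545 without siRNA replicate 2 and 528 without centring, where 709, 799 and 841 fell. Counts of gene lists below with a column left out or without centring are to be read beside the all-gene counts of that setting. They do not compare with the main shares of all genes. The changes were mostly small, with a median of -0.40 among the genes that fell and 0.34 among those that rose. Large changes were nearly all drops. 45 genes were lower by 1 log2 unit or more (0.586% of all genes), and 1 gene was higher by as much (0.013%), and all 46 passed the test. At 0.5 log2 units or more, 341 genes were lower and 119 higher. The siRNA columns lay wholly on one side of the mock columns in 4914 genes (64%), among them all 1914 genes that passed. For any gene that passed, lack of overlap therefore adds nothing to the call. With the genes cut by mean total RNA level into 4 bins of 1920 or 1921, 10.5% fell and 8.17% rose in the lowest bin, 13.3% and 13.1% in the next, 13.4% and 14.4% in the third, and 16.1% and 10.7% in the highest.

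**Figure D1:**
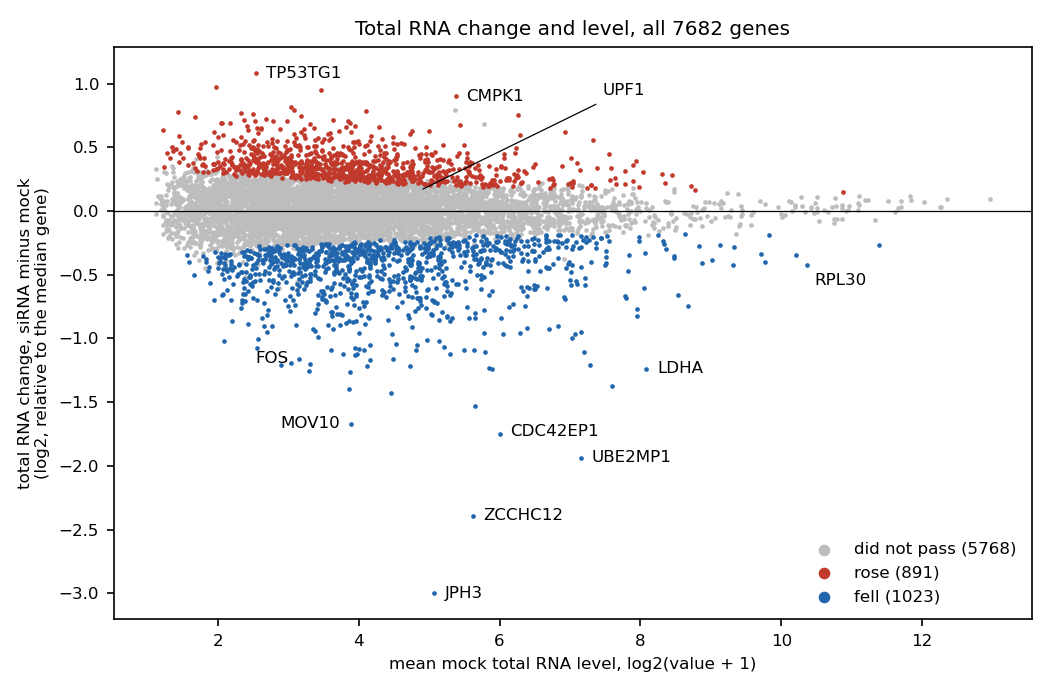
Total RNA change against mock level for all 7682 genes. The x axis gives the mean mock level as log2(value + 1) and the y axis the centred log2 change, siRNA minus mock. Red points rose (891), blue points fell (1023) and grey points did not pass the test. The drops reach -2.999 (JPH3), while the largest rise is 1.08 (TP53TG1).

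The 15 largest drops, and the 15 largest rises below, were picked among called genes whose columns did not overlap between conditions. Lack of overlap in them therefore follows from the choice. Apart from MOV10, the 15 largest drops were led by 4 genes. JPH3 encodes junctophilin 3, a neuronal protein that ties the endoplasmic reticulum to the plasma membrane. Its total RNA was at 35.3 and 29.8 (mock) and 2.83 and 3.43 (siRNA), a change of -2.999 (SE 0.11, limma adjusted p = 9.55e-08). ZCCHC12, a zinc-knuckle co-activator in BMP signalling, was at 45.5 and 50.6 (mock) and 8.05 and 8.34 (siRNA) (change -2.39, SE 0.074, limma adjusted p = 3.26e-08). UBE2MP1, a pseudogene of the NEDD8-conjugating enzyme gene UBE2M, went from 133 and 149.8 in mock to 37.96 and 33.3 after siRNA (change -1.94, limma adjusted p = 9.55e-08). Reads shared between UBE2MP1 and its parent could have been assigned to either, so its value is uncertain. CDC42EP1, an effector of the small GTPase CDC42 that acts on the actin cytoskeleton, was at 55.9 and 70.4 (mock) and 18.6 and 16.8 (siRNA) (change -1.75, limma adjusted p = 8.69e-07). In each of these genes the pair of siRNA columns was clearly below the pair of mock columns, and the gap was larger than the distance within either pair.

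A set of splicing, translation and metabolic genes followed. WBP11, a splicing factor, was at 46.9 and 52.03 (mock) and 15.97 and 16.3 (siRNA) (change -1.53, limma adjusted p = 4e-07). MBNL1, a muscleblind regulator of alternative splicing, was at 20.9 and 20.9 (mock) and 6.95 and 7.02 (siRNA) (change -1.43, limma adjusted p = 1.4e-06). EIF6, which keeps the large ribosomal subunit from joining the small one too early, was at 179 and 204 (mock) and 73.9 and 70.4 (siRNA) (change -1.37, limma adjusted p = 4e-07). All 3 showed pairs of columns far apart between conditions and close together within them. LDHA, the A subunit of lactate dehydrogenase, had the highest values of the 15 largest drops, at 265 and 275 (mock) and 110.2 and 114 (siRNA), a 2.41-fold lower mean (change -1.24, SE 0.057, limma adjusted p = 4e-07). GPD2, the mitochondrial glycerol-3-phosphate dehydrogenase, was at 12.9 and 14.4 (mock) and 4.86 and 5.19 (siRNA) (change -1.26, limma adjusted p = 7.17e-06). Both metabolic genes had no overlap between conditions.

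The other members of the 15 were KCTD9, SMAP1, BTBD1, UBQLN1 and ZCCHC10, with changes from -1.400 to -1.22. UBQLN1, a ubiquilin that shuttles ubiquitinated proteins to the proteasome, was at 55.05 and 58.2 (mock) and 22.5 and 23.8 (siRNA). SMAP1, a GTPase-activating protein for ARF6, was at 8.35 and 9.32 (mock) and 3.23 and 2.89 (siRNA). KCTD9, with a BTB domain, was at 13.7 and 13.3 (mock) and 4.15 and 4.69 (siRNA). In all 3 the siRNA columns were well below mock. BTBD1, also with a BTB domain, was at 58.7 and 57.6 (mock) and 24.2 and 23.1 (siRNA). ZCCHC10 was at 17.1 and 15.5 (mock) and 6.03 and 6.61 (siRNA). BTBD1 and ZCCHC10 had no overlap either, and all 15 passed with each column left out in turn.

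**Figure D2:**
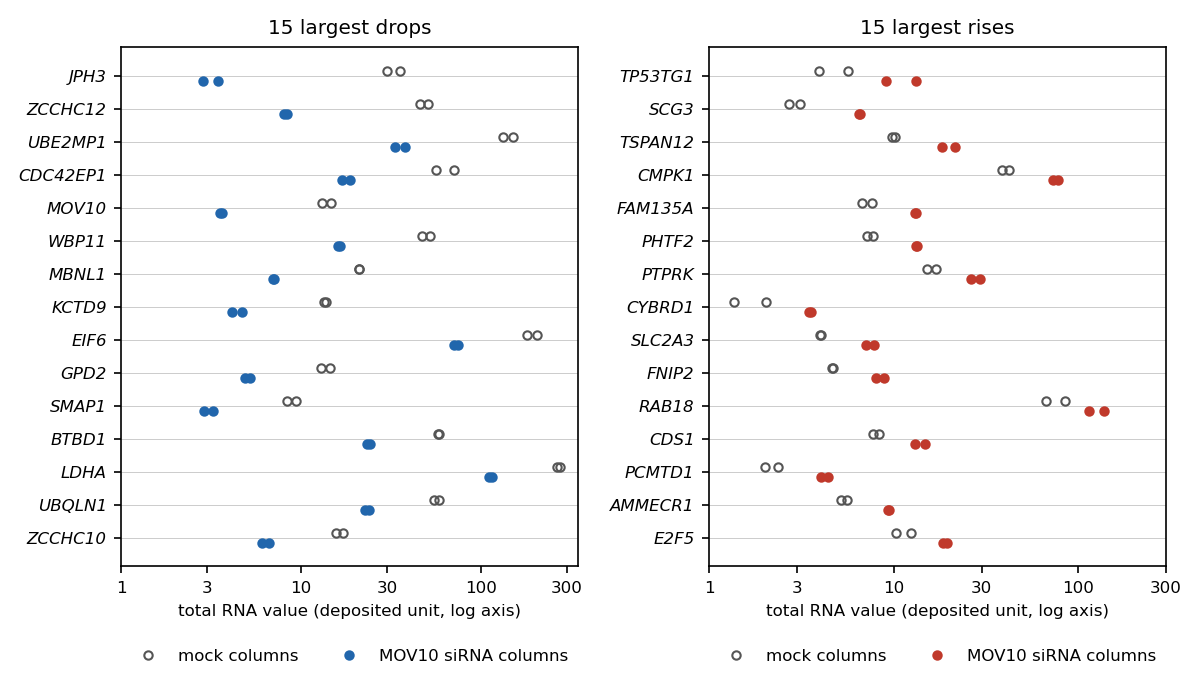
Total RNA values in each column for the 15 largest drops (left) and the 15 largest rises (right) that passed the test. The x axis is the deposited value on a log axis, open circles are the 2 mock columns and filled circles the 2 MOV10 siRNA columns. Genes were picked among those with no overlap between the groups, and LDHA moves from 265 and 275 to 110.2 and 114.

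A short 3′ UTR sequence was more frequent among genes that fell than among all genes. The 7 letters TACTGCA were known from an earlier analysis of these data, so their share is given as a description with no test. They were searched on the sense strand of the longest annotated 3′ UTR of each gene (GENCODE release 29, GRCh38), which was found for 7570 of the 7682 genes (98.5%). The letters were in 943 of them (12.5%). They were in 248 of the 1011 genes with a 3′ UTR that fell (24.5%), in 77 of 879 that rose (8.76%) and in 618 of 5680 that did not pass (10.9%). Among the genes lower by 1 log2 unit or more, 20 of 44 held them (45.5%), as against 5 of 118 higher by 0.5 or more (4.24%). Among the 15 largest drops, WBP11, MBNL1, KCTD9, EIF6, GPD2, SMAP1, LDHA, UBQLN1 and ZCCHC10 held at least 1 copy. JPH3, ZCCHC12, CDC42EP1, MOV10 and BTBD1 held none in this window, and UBE2MP1 had no annotated 3′ UTR. Of the 15 largest rises none held a copy, with no annotated 3′ UTR for TP53TG1.

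The site is printed for 4 of the genes with a single copy, which include the drop with the highest values (LDHA) and the shortest of these 3′ UTRs (EIF6). The 27 bases run 5′ to 3′ on the transcript strand, with the 7 letters in capitals, and all lie within an exon of the 3′ UTR.
LDHA: atgctgtacgTACTGCAtttgcccctt
EIF6: gatctatcatTACTGCAaaaacctgct
WBP11: gttcagaattTACTGCAcataaaaaag
SMAP1: tgatttcatgTACTGCAttatttgaga
In GRCh38 the LDHA window is chr11:18407546-18407572 on the plus strand, the EIF6 window is chr20:35279008-35279034 on the minus strand, the WBP11 window is chr12:14786894-14786920 on the minus strand and the SMAP1 window is chr6:70860560-70860586 on the plus strand. The flanking bases differ among the 4 windows, as the lines show. None of 2370 mature human miRNAs in RefSeq has bases 2 to 8 complementary to TACTGCA. The sequence of the siRNA itself was not analysed here, and what the shared letters have to do with the drops was not tested.

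A longer 3′ UTR holds any 7 letters more often, and genes that rose had longer 3′ UTRs (median 2190 bases) than genes that fell (1163 bases). The share with TACTGCA was therefore also read within 4 bins of 3′ UTR length with about equal numbers of genes. In the shortest bin, up to 618 bases, it was in 19 of 309 genes that fell (6.15%), in 0 of 92 that rose and in 1.69% of all genes. In the longest bin, from 2807 bases, it was in 112 of 210 genes that fell (53.3%), in 50 of 338 that rose (14.8%) and in 28.8% of all genes. The median change of genes with the letters was -0.37, -0.18, -0.04 and -0.01 from the shortest to the longest bin, beside -0.05, 0.00, 0.05 and 0.09 without them. Of 810 genes with 1 copy 26.3% fell, of 112 with 2 copies 25.9% and of 21 with 3 or more 28.6%. Of genes with none 11.5% fell. The median 3′ UTR length was 3036, 5338 and 7496 bases with 1, 2 and 3 or more copies, and 1273 with none. The shares by copy number were not read at equal length, so they do not show whether more copies matter. Where a single copy was followed by A, 32.7% of 205 genes fell. The shares were 27.1% of 229 for T, 26.8% of 142 for C and 19.7% of 233 for G. By the base before the copy, 29% fell for A, 28.4% for T, 24.1% for G and 22.1% for C. These shares were not tested. In labelled RNA the median change was -0.03 for genes with 1 copy and 0.01 for genes with none, and in the flow-through it was -0.04 and 0.05.

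**Figure D3:**
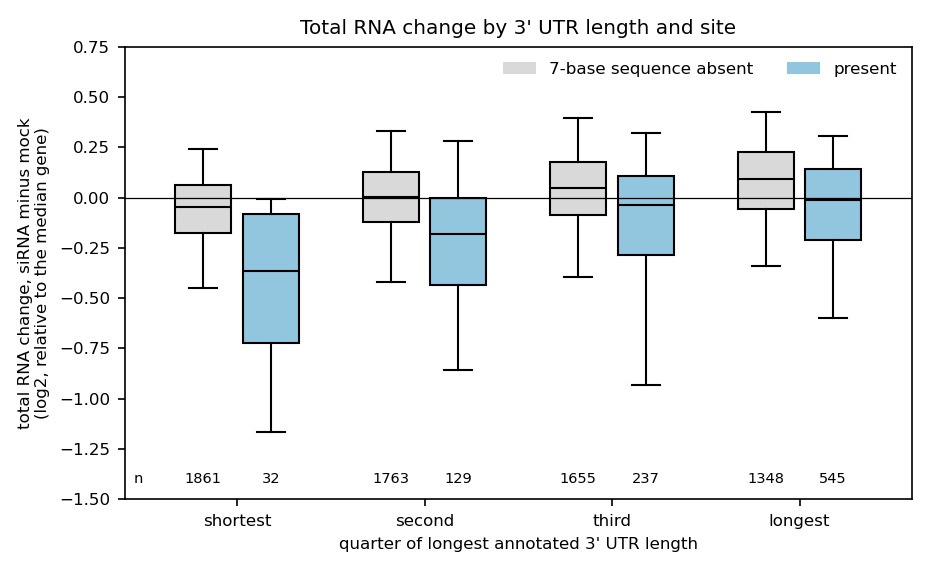
Total RNA change by 3′ UTR length in 4 bins, for genes without (grey) and with (blue) the 7-base sequence. Boxes give the quartiles with the median, whiskers the 5th and 95th percentiles, and n the number of genes. The medians with the sequence run from -0.37 in the shortest bin to -0.01 in the longest.

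Other 3′ UTR letters known as regulatory sites were more frequent among the genes that rose. The AU-rich letters TATTTAT were in 52.9% of genes that rose, 32.3% of genes that fell and 36.7% of all. TGTANATA, the core that Pumilio proteins bind, was in 47.3%, 23.8% and 31.2%. CTACCTC, complementary to the seed of the let-7 miRNA family, was in 13.9%, 9.4% and 11% of all. The seed is bases 2 to 8, in capitals in the mature miRNA from RefSeq.
let-7a-5p: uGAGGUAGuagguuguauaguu
The share of genes that rose went from 11.2% without CTACCTC to 14.2% with 1 copy and 16.1% with 2, and from 8.89% without TGTANATA to 22% with 3 or more copies. These letters differ from TACTGCA, but their shares also follow 3′ UTR length. Whether their sites overlap those of TACTGCA was not examined.

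The largest rises were smaller than the largest drops. TP53TG1, a noncoding RNA named as a p53 target, was at 3.95 and 5.64 (mock) and 13.2 and 9.07 (siRNA) (change 1.08, SE 0.15, limma adjusted p = 0.000613). Its siRNA columns lay above both mock columns but differed from each other, and in the variant of the test without a mean-variance trend its call was lost (limma adjusted p = 0.103). SCG3, secretogranin III of the secretory granules of neuroendocrine cells, was at 2.72 and 3.11 (mock) and 6.56 and 6.52 (siRNA) (change 0.97, limma adjusted p = 5.63e-05). TSPAN12, a tetraspanin that acts with Frizzled 4 in Norrin signalling, was at 10.2 and 9.79 (mock) and 21.6 and 18.4 (siRNA) (change 0.95, limma adjusted p = 5.67e-05). CMPK1, the pyrimidine nucleoside monophosphate kinase that phosphorylates UMP and CMP, was at 42.5 and 38.7 (mock) and 77.5 and 73.2 (siRNA) (change 0.90, limma adjusted p = 2.73e-05). In SCG3, TSPAN12 and CMPK1 both siRNA columns lay well above both mock columns, which were close together.

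Among the rest of the 15 were genes of membrane transport and signalling. SLC2A3, the glucose transporter GLUT3, was at 4.02 and 4.01 (mock) and 7.795 and 7.06 (siRNA). PTPRK, a receptor tyrosine phosphatase, was at 15.2 and 17.1 (mock) and 29.5 and 26.5 (siRNA). RAB18, a small GTPase of lipid droplets and the endoplasmic reticulum, was at 66.7 and 84.95 (mock) and 114 and 138 (siRNA). The columns of these 3 genes did not overlap. CYBRD1, a ferric reductase, was at 2.03 and 1.37 (mock) and 3.57 and 3.498 (siRNA). CDS1, which makes CDP-diacylglycerol, was at 7.703 and 8.38 (mock) and 14.8 and 13.1 (siRNA). E2F5, a transcription factor of the E2F family, was at 12.4 and 10.3 (mock) and 19.4 and 18.5 (siRNA). CYBRD1 in mock lay near the bottom of the table's range. FAM135A, PHTF2, FNIP2, PCMTD1 and AMMECR1 completed the set, and the changes from FAM135A down to E2F5 ran from 0.82 to 0.72. Size alone did not make a call. UTP14C, a nucleolar protein gene picked after its values were seen, was at 16.3 and 64.1 (mock) and 65.9 and 48.02 (siRNA), a change of 0.79 with overlapping columns that did not pass (limma adjusted p = 0.187).

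Genes with the highest deposited values moved by small amounts. The 5 with the highest mock values among those that fell were RPS24 (-0.26), RPL30 (-0.42), RPL34 (-0.35), the polyubiquitin gene UBB (-0.19) and SAT1 (-0.40), which encodes spermidine/spermine acetyltransferase. RPL30, a large-subunit ribosomal protein gene, was at 1292 and 1350.3 (mock) and 966 and 973 (siRNA) (limma adjusted p = 0.00016), with no overlap. The corresponding 5 that rose were RPL38 (0.15), the histone chaperone gene SET (0.16), TMBIM6 (0.20), the asparagine synthetase gene ASNS (0.29) and PMAIP1 (0.22), which encodes the BH3-only protein NOXA. Several of these calls rested on single columns. Those of RPL38, SET and TMBIM6 were lost without either siRNA column (limma adjusted p up to 0.361, 0.344 and 0.205). The call of PMAIP1 was lost without mock replicate 2 or either siRNA column, limma adjusted p up to 0.284, and that of UBB was lost without either siRNA column, limma adjusted p up to 0.307. The call of RPS24 was lost without siRNA replicate 2, limma adjusted p up to 0.103.

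Did total RNA change as newly made RNA did? In labelled RNA 752 genes rose (9.79%) and 860 fell (11.2%), and in the flow-through 2280 rose (29.7%) and 1937 fell (25.2%). The total change was above the labelled change in 528 genes (6.87%) and below it in 565 (7.35%) by the limma test of the difference. Without siRNA replicate 1 these counts were 287 and 342, and without siRNA replicate 2 they were 337 and 365. Genes that fell in total RNA had a median change of -0.12 in labelled RNA and -0.45 in the flow-through, and genes that rose had medians of 0.07 and 0.35. The fractions come from the same cells and total RNA contains both, so these medians are not separate evidence. LDHA was at 102 and 90.7 (mock) and 108 and 107 (siRNA) in labelled RNA (change 0.04, limma adjusted p = 0.789). The labelled columns of LDHA overlapped between conditions, and the total change lay -1.28 below the labelled one (limma adjusted p = 3.63e-05). EIF6 was 0.24 in labelled RNA (limma adjusted p = 0.0696), with a difference of -1.61 (limma adjusted p = 1.05e-05). ZCCHC12 fell in labelled RNA as well, by 1.68 (limma adjusted p = 3.47e-08), and by more in total RNA (difference -0.71, limma adjusted p = 0.00298).

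JPH3 moved in opposite directions in the fractions. Its labelled RNA was at 3.901 and 3.98 (mock) and 21.9 and 22.8 (siRNA), a rise of 2.12 (limma adjusted p = 9.71e-10), while its total RNA fell by 2.999. In the flow-through JPH3 was at 69.95 and 5.02 (mock) and 2.96 and 2.46 (siRNA), so 1 mock column lay close to the siRNA columns and the other far above them, and the change of -2.46 did not pass (limma adjusted p = 0.0908). In mock replicate 2 the total RNA value of JPH3 was far above both its labelled and its flow-through value, although total RNA contains both. The reason was not tested, so the values and changes of JPH3 are uncertain. The difference between its total and labelled change was -5.12 (SE 0.15, limma adjusted p = 3.81e-09). In the authors' deposited table the half-life of JPH3 changed by -4.704 log2 units relative to the median gene, and that of LDHA by -1.21. These half-lives were computed from the same 3 fractions, so they are not separate evidence.

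Among the 15 largest rises, SLC2A3 had the widest difference from labelled RNA that passed the test. Its labelled RNA was at 9.41 and 8.305 (mock) and 6.97 and 6.92 (siRNA), a fall (change -0.43, limma adjusted p = 0.00437), against the rise of 0.77 in total RNA (difference 1.199, limma adjusted p = 0.000237). The authors' deposited table, computed from the same fractions, gives SLC2A3 a half-life change of 1.23 log2 units relative to the median gene. CMPK1 was 0.17 in labelled RNA and 0.90 in total RNA (difference 0.73, limma adjusted p = 0.00298). FAM135A and PHTF2 had differences of 0.73 and 0.82 (limma adjusted p = 0.00181 and 0.00371). SCG3 and TSPAN12 had labelled changes of 0.50 and 0.49 (limma adjusted p = 0.00313 and 0.00217), and the total changes were larger by 0.47 and 0.46 (limma adjusted p = 0.0272 and 0.0372).

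**Figure D4:**
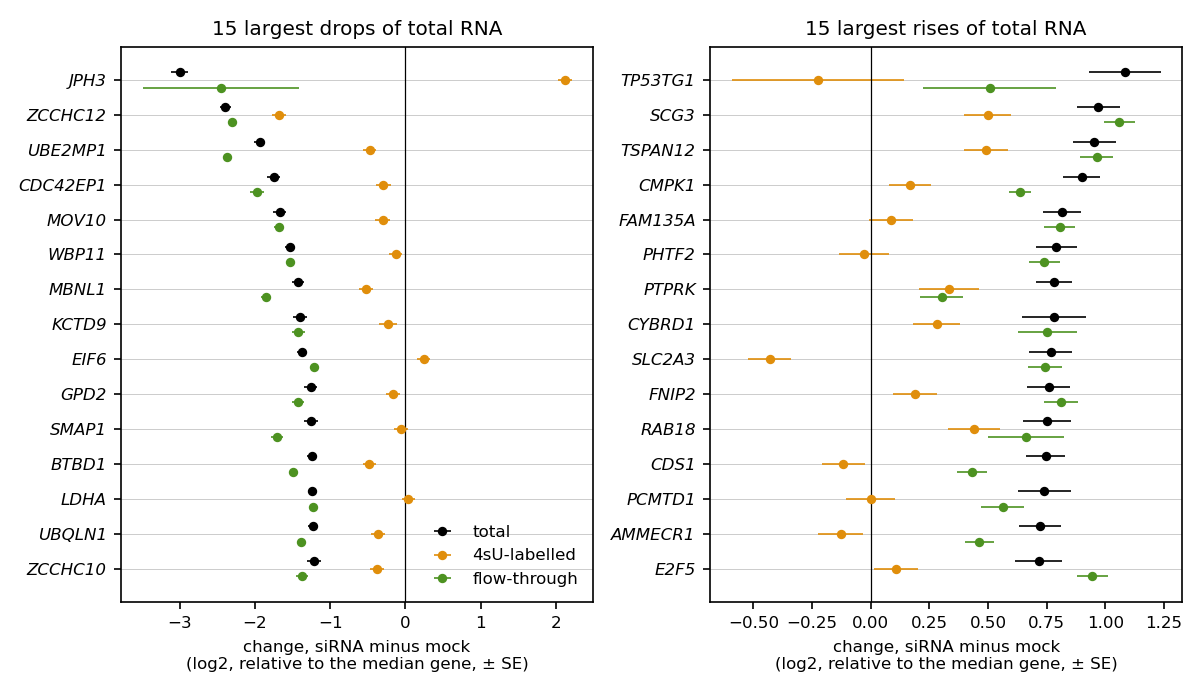
Changes of the 15 largest drops (left) and rises (right) of total RNA in the 3 fractions, as log2 change relative to the median gene of each fraction with its SE (n = 2 columns per condition). Total RNA is black, 4sU-labelled RNA orange and flow-through RNA green. JPH3 is at 2.12 in labelled RNA and -2.999 in total RNA, and LDHA at 0.04 and -1.24.

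Of the 37 gene lists, that of immediate early and serum response genes had the highest share of drops. These genes are transcribed within minutes of growth factor or stress signals, and their mRNAs are short-lived. Of 26 in the table, 18 fell (69.2%) and 0 rose, with a median change of -0.42. Over all genes 13.3% fell and the median was 0.01. FOS, a subunit of the transcription factor AP-1, was at 6.97 and 8.76 (mock) and 3.103 and 2.68 (siRNA) (change -1.16, limma adjusted p = 3.9e-05). FOSB, its relative, was at 3.11 and 4.03 (mock) and 1.499 and 1.41 (siRNA) (change -0.87, limma adjusted p = 0.000357). The siRNA columns of both lay below the mock columns. Further members were picked after their values were seen. JUN, the partner of FOS in AP-1, was at 84.9 and 97.2 (mock) and 58.9 and 59.4 (siRNA) (change -0.59). JUNB was at 11.8 and 14.2 (mock) and 8.76 and 8.77 (siRNA) (change -0.49). The columns of both pairs were apart. IER3, an early response gene linked to cell survival, was at 12.5 and 14.1 (mock) and 6.61 and 8.45 (siRNA) (change -0.73). The other members that fell were ARC, SPRY4, ZFP36L1, FOSL1, ZFP36, NR4A1, IER2, ATF3, SPRY2, JUND, DUSP6, KLF10 and DUSP1, with changes from -0.75 to -0.28. Calls that rested on single columns were those of SPRY4 (lost without mock replicate 1, limma adjusted p up to 0.102), ZFP36 (lost without mock replicate 2, limma adjusted p up to 0.1), DUSP6 (lost without mock replicate 1 or siRNA replicate 1, limma adjusted p up to 0.191), KLF10 (lost without mock replicate 2 or siRNA replicate 1, limma adjusted p up to 0.15) and DUSP1 (lost without mock replicate 2 or siRNA replicate 2, limma adjusted p up to 0.162). The list's members that fell include the AU-rich element binding proteins ZFP36 and ZFP36L1 and the MAP kinase phosphatases DUSP1 and DUSP6.

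Labelled RNA of the same list had a median change of -0.65 and flow-through RNA one of -0.80. FOS labelled RNA was at 42.8 and 45.7 (mock) and 16.8 and 14.2 (siRNA) (change -1.58, limma adjusted p = 9.24e-08), and the test of the difference from total RNA did not pass (limma adjusted p = 0.085). IER2 and JUND fell more in labelled than in total RNA, with differences of 0.68 and 0.92 (limma adjusted p = 0.00735 and 0.00229). ATF3 did the opposite, at -0.43 in total RNA and 0.04 in labelled RNA (limma adjusted p of the difference = 0.0137). None of the 26 held TACTGCA in its longest 3′ UTR. Between 15 and 18 members fell when any 1 column was left out, and 15 without centring. CYR61, DUSP4, ZFP36L2, IER5, KLF4, BTG2, SRF and SPRED1 did not pass, with changes from -0.22 to 0.25.

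Of 12 factors of nonsense-mediated decay, 2 rose and 2 fell (16.7% each, median 0.16), near the 11.6% and 13.3% of all genes. Without mock replicate 1, 4 rose and 3 fell, and without either siRNA column 1 rose and 2 fell. UPF2, the adaptor between UPF1 and the exon junction complex, was at 15.98 and 12.5 (mock) and 7.22 and 8.75 (siRNA) (change -0.74, limma adjusted p = 0.00235). Its siRNA columns were below both mock columns, while its flow-through change was 0.05 (limma adjusted p = 0.591) and its labelled change 0.22 (limma adjusted p = 0.193). GSPT1, the release factor eRF3a, was at 57.99 and 58.9 (mock) and 36.9 and 36.8 (siRNA) (change -0.63, limma adjusted p = 8.15e-05). SMG1, the kinase of UPF1, was at 18.9 and 18.4 (mock) and 26.3 and 25.8 (siRNA) (change 0.48, limma adjusted p = 0.00103). EIF4A3, a core subunit of the exon junction complex, rose by 0.20 (lost without mock replicate 2 or either siRNA column, limma adjusted p up to 0.332). Of 18 known targets of this decay pathway, 2 rose and 3 fell (11.1% and 16.7%, median 0.04), also near the shares of all genes, with 1 rise without mock replicate 2 or either siRNA column. The 2 that rose were ASNS and TRA2A (0.22, lost without mock replicate 2 or either siRNA column, limma adjusted p up to 0.316), and those that fell were UPF2 itself, GADD45B (-0.53) and ATF3 (-0.43).

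Of 14 genes of the microRNA machinery, 3 rose and 0 fell, a share of 21.4% beside 11.6% of all genes. TNRC6A and TNRC6C encode GW182 proteins, which link Argonaute to deadenylation. TNRC6A was at 9.76 and 9.63 (mock) and 14.98 and 14.4 (siRNA) (change 0.57, limma adjusted p = 0.000566). TNRC6C was at 4.58 and 4.78 (mock) and 6.13 and 6.71 (siRNA) (change 0.41, limma adjusted p = 0.00925, lost without siRNA replicate 2, limma adjusted p up to 0.0704). The third was the decapping activator DDX6 (0.25, lost without mock replicate 2 or either siRNA column, limma adjusted p up to 0.205). EIF2C2, the gene of Argonaute 2, was at 12.4 and 12.4 (mock) and 12.6 and 13.6 (siRNA) and did not pass (limma adjusted p = 0.406).

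In the deadenylation and decapping list, 7 of 33 rose and 2 fell (21.2% and 6.06%, beside 11.6% and 13.3% of all genes). BTG3, an anti-proliferative protein that binds the CCR4-NOT deadenylase, was at 17.4 and 16.8 (mock) and 25.4 and 26.1 (siRNA) (change 0.59, limma adjusted p = 0.000363). DCP2, the decapping enzyme, was at 10.7 and 9.601 (mock) and 15.4 and 14.6 (siRNA) (change 0.54, limma adjusted p = 0.00175). LSM14B, a decapping-body protein, fell by 0.54 and the scaffold EDC3 by 0.28 (lost without either siRNA column, limma adjusted p up to 0.118). Of 17 exosome genes 2 rose and 2 fell (11.8% each, near the shares of all genes), and 1 each without mock replicate 2 or either siRNA column. The nuclear exosome cofactors ZCCHC8 and ZCCHC7 were at changes of 0.35 and 0.30, the latter lost without mock replicate 2 or either siRNA column, limma adjusted p up to 0.22. WDR61, of the SKI complex, fell by 0.45 and HBS1L by 0.19 (lost without mock replicate 2 or either siRNA column, limma adjusted p up to 0.334). Of 17 retroelement and virus restriction factors, 1 rose and 2 fell (5.88% and 11.8%, no higher than among all genes). The cytidine deaminase APOBEC3C was at 13.4 and 15.6 (mock) and 9.68 and 8.69 (siRNA) (change -0.58, limma adjusted p = 0.000842) and APOBEC3B changed by -0.41 (lost without mock replicate 2 or siRNA replicate 2, limma adjusted p up to 0.0757). TRIM25 changed by 0.25 (lost without either siRNA column, limma adjusted p up to 0.188).

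Genes known as targets of the let-7 miRNA rose more often than they fell, 12 against 2 of 27 (44.4% and 7.41%, beside 11.6% and 13.3% of all genes, median 0.21). E2F5, also among the largest rises, carries 1 CTACCTC in its longest 3′ UTR. IGF1R, the receptor of insulin-like growth factor 1, was at 5.58 and 6.01 (mock) and 8.89 and 8.94 (siRNA) (change 0.57, limma adjusted p = 0.000801). Its columns did not overlap. Picked after their values were seen, the nuclear receptor gene NR6A1 was at 2.399 and 2.34 (mock) and 4.08 and 3.49 (siRNA) (change 0.52). RRM2, a subunit of ribonucleotide reductase, was at 70.6 and 77.4 (mock) and 103 and 103 (siRNA) (change 0.49). The G1 kinase gene CDK6 was at 7.01 and 6.54 (mock) and 10.1 and 9.05 (siRNA) (change 0.46). All 3 had both siRNA columns above both mock columns, and their labelled changes were -0.01, -0.09 and -0.08. HMGA2, also a known let-7 target, fell. The longest of its annotated 3′ UTRs holds 0 copies of CTACCTC. Counts for its other annotated 3′ UTRs are not given here, so the 0 does not show that HMGA2 lacks let-7 sites. Which 3′ UTR these cells use was not tested. It was at 21.96 and 20.7 (mock) and 9.12 and 8.54 (siRNA), a change of -1.16 (limma adjusted p = 8.84e-06), and its labelled change was -0.74 (limma adjusted p = 6.94e-05). The count of 12 fell to 6 without siRNA replicate 1, to 8 without siRNA replicate 2, and to 6 without centring.

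Genes of the integrated stress response under ATF4 rose in 11 of 32 cases and fell in 4 (34.4% and 12.5%, beside 11.6% and 13.3% of all genes, median 0.09). Those that rose include enzymes of amino acid supply. ASNS was at 342 and 353 (mock) and 419 and 416 (siRNA) (change 0.29, limma adjusted p = 0.00285), and PSAT1, of serine synthesis, was at 247 and 239.7 (mock) and 323 and 305 (siRNA) (change 0.39). The lipoprotein receptor gene VLDLR rose by 0.48 and the tRNA exportin gene XPOT by 0.41 (limma adjusted p = 0.00197 and 0.000698). The 4 that fell were regulators and a synthetase, with JDP2 at -0.76, PPP1R15A (GADD34) at -0.54, ATF3 at -0.43 and MARS at -0.24 (lost without either siRNA column, limma adjusted p up to 0.117). ATF4 itself was at 566 and 581 (mock) and 602 and 579 (siRNA) and did not pass (limma adjusted p = 0.412). The count of 11 was 5 and 6 without siRNA replicates 1 and 2, and 6 without centring.

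In the endoplasmic reticulum branch of the unfolded protein response, 8 of 22 fell and 1 rose (36.4% fell, beside 13.3% of all genes, median -0.15). CANX, the lectin chaperone calnexin, was at 205 and 233 (mock) and 132 and 139 (siRNA) (change -0.67, limma adjusted p = 5.67e-05). PDIA6, a protein disulfide isomerase, was at 85.2 and 93.5 (mock) and 57.8 and 56.5 (siRNA) (change -0.61, limma adjusted p = 7.51e-05). Neither changed in labelled RNA past the test (changes 0.10 and -0.04), and the differences from total RNA passed (limma adjusted p = 0.00242 and 0.00312). The others that fell were DERL3, SYVN1, EDEM1, SDF2L1, SEC61B and HSPA5 (BiP), with changes from -0.53 to -0.21. The calls of SDF2L1 (lost without mock replicate 2, limma adjusted p up to 0.148), SEC61B (lost without either siRNA column, limma adjusted p up to 0.0904) and HSPA5 (lost without either siRNA column, limma adjusted p up to 0.292) rested on single columns. XBP1 rose by 0.19 (lost without mock replicate 2 or either siRNA column, limma adjusted p up to 0.347). Leaving out single columns gave 6 to 10 drops.

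**Figure D5:**
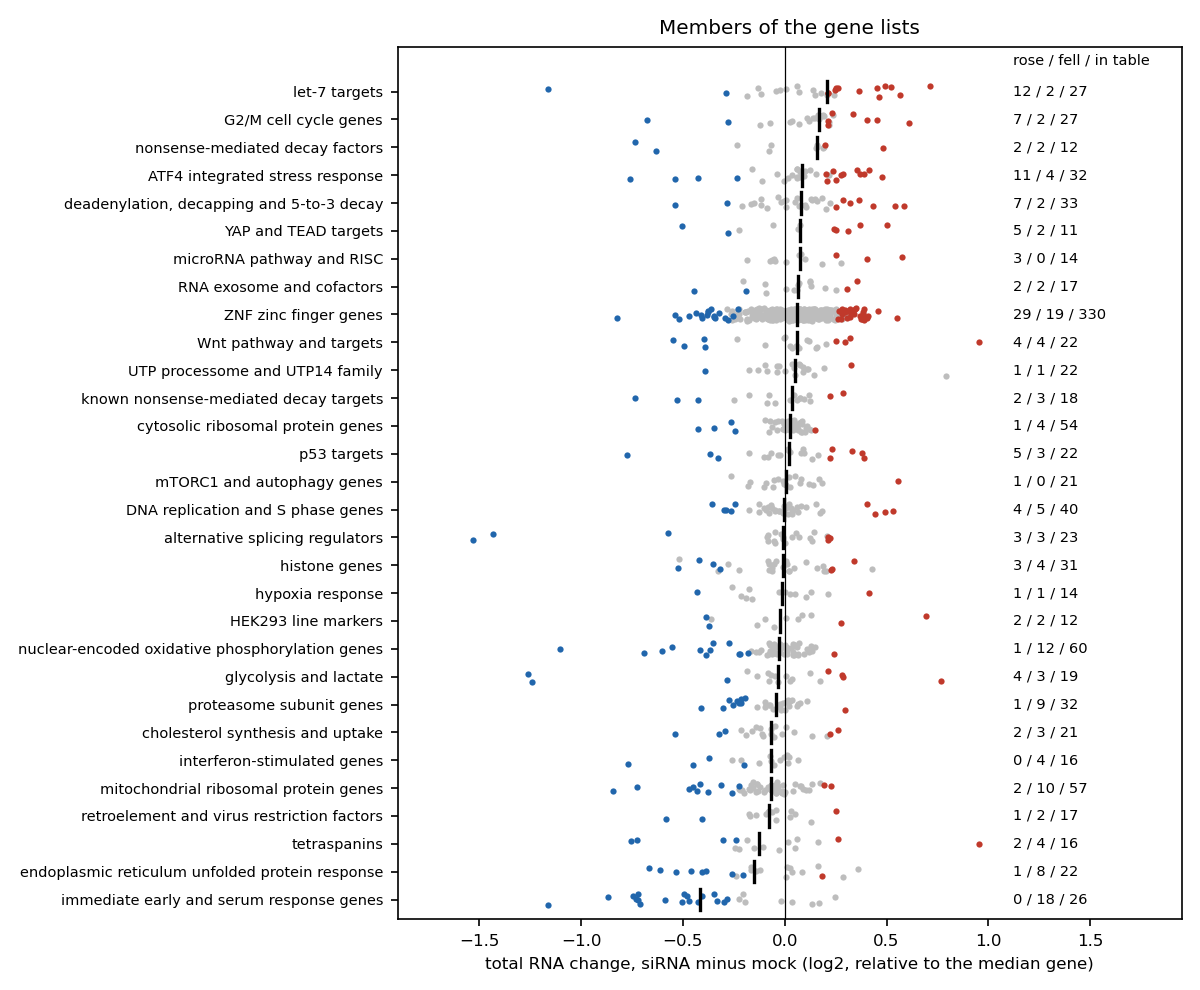
Total RNA changes of the members of the gene lists described in the results that have 10 or more genes in the table, without markers of other cell types. The x axis is the log2 change relative to the median gene, red points rose, blue points fell, grey points did not pass, and black bars are list medians. The numbers at the right give how many rose, fell and were in the table, from 0, 18 and 26 for immediate early genes to 12, 2 and 27 for let-7 targets.

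Mitochondrial lists held some large single drops, while most of their members did not pass. Of 60 nuclear-encoded genes of oxidative phosphorylation, 12 fell and 1 rose (20% fell, beside 13.3% of all genes, median -0.03), and 8 fell without siRNA replicate 2. NDUFB10, a subunit of complex I, was at 140.1 and 153 (mock) and 65.96 and 67.1 (siRNA) (change -1.104, limma adjusted p = 1.4e-06). NDUFA13 was at 118 and 123 (mock) and 73.2 and 73.2 (siRNA) (change -0.69, limma adjusted p = 2.55e-05). NDUFA5 rose by 0.24 (lost without mock replicate 2 or either siRNA column, limma adjusted p up to 0.216). Of 57 mitochondrial ribosomal protein genes, 10 fell and 2 rose (17.5% fell, near the share of all genes, median -0.07). MRPS2 was at 60.1 and 67.2 (mock) and 34.7 and 34.2 (siRNA) (change -0.84). MRPL3 was at 71.4 and 72.1 (mock) and 41.9 and 42.7 (siRNA) (change -0.73). Neither overlapped between conditions. Their labelled RNA did not pass (changes -0.02 and -0.05). MRPS33 rose by 0.23 (lost without mock replicate 2 or either siRNA column, limma adjusted p up to 0.291) and MRPS35 by 0.19 (lost without mock replicate 2 or either siRNA column, limma adjusted p up to 0.279). Without mock replicate 1 the drops in this list numbered 16. Of 54 cytosolic ribosomal protein genes, 4 fell and 1 rose (7.41% and 1.85%, below the 13.3% and 11.6% of all genes, median 0.03).

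Of 32 proteasome genes 9 fell and 1 rose (28.1% fell, beside 13.3% of all genes, median -0.04). With siRNA replicate 1 or 2 left out, the share that fell was no higher than among all genes in the same setting. PSMB1 was at 185 and 177 (mock) and 131 and 137 (siRNA) (change -0.41, limma adjusted p = 0.00128) and PSMA2 changed by -0.30. The count of 9 was 2 and 3 without siRNA replicates 1 and 2, 5 without mock replicate 2, and 4 without centring. PSMB10, of the immunoproteasome, changed by 0.30 (lost without mock replicate 2 or either siRNA column, limma adjusted p up to 0.174). Interferon-stimulated genes fell in 4 of 16 cases with 0 rises (25% fell), and in 2 without siRNA replicate 1. Over all genes 13.3% fell and 11.6% rose. HLA-C was at 226 and 269 (mock) and 142 and 143 (siRNA) (change -0.77, limma adjusted p = 3.28e-05), and IFITM1 was at 19.4 and 19.5 (mock) and 14.3 and 13.1 (siRNA) (change -0.45, limma adjusted p = 0.00206). HLA-C shares sequence with other class I genes, and how such reads were assigned was not stated.

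Among cell-cycle genes, the G2/M list had more rises than drops. Of 27 G2/M genes, 7 rose and 2 fell (25.9% and 7.41%, beside 11.6% and 13.3% of all genes, median 0.17). ANLN, the actin-binding protein anillin of the cleavage furrow, was at 11.3 and 10.8 (mock) and 17.6 and 16.7 (siRNA) (change 0.61, limma adjusted p = 0.000438). TOP2A, topoisomerase II alpha, was at 75.99 and 70.8 (mock) and 101 and 97.1 (siRNA) (change 0.45, limma adjusted p = 0.00111). CENPF, a kinetochore protein, fell instead, at 26.9 and 32.8 (mock) and 15.6 and 20.7 (siRNA) (change -0.67, limma adjusted p = 0.00245), while its labelled RNA rose by 0.46 (limma adjusted p = 0.0258). CKS2 changed by -0.28 (lost without mock replicate 2 or siRNA replicate 1, limma adjusted p up to 0.398). The 7 rises were 14 without mock replicate 1, 4 without siRNA replicate 1 and 3 without siRNA replicate 2. Of 40 S phase and replication genes, 4 rose and 5 fell (10% and 12.5%, near the shares of all genes, median -0.01), and the drops were 2 without mock replicate 2 or either siRNA column. CCNE2, cyclin E2, rose by 0.53 and RRM2 by 0.49. CHAF1B fell by 0.36 (lost without siRNA replicate 2, limma adjusted p up to 0.0741) and TK1 by 0.30 (lost without mock replicate 2 or siRNA replicate 1, limma adjusted p up to 0.155). Of 31 histone genes 3 rose and 4 fell (9.68% and 12.9%, near the shares of all genes), with 1 rise without siRNA replicate 2. The linker histone gene H1F0 changed by 0.34 (lost without siRNA replicate 1, limma adjusted p up to 0.0582), H3F3B by 0.23 (lost without either siRNA column, limma adjusted p up to 0.12), HIST1H2BK by -0.52 and HIST1H2AJ by -0.42 (lost without siRNA replicate 2, limma adjusted p up to 0.0551). Replication-dependent histone mRNAs lack a poly(A) tail, and the libraries were made from poly(A)+ RNA.

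Metabolic and signalling lists held changes in both directions. In glycolysis and lactate metabolism, 4 of 19 rose and 3 fell (21.1% and 15.8%, beside 11.6% and 13.3% of all genes). The rises were 1 without either siRNA column and 6 without mock replicate 2, and the drops were 6 without mock replicate 1 and 2 without siRNA replicate 2. The calls included GPD2, LDHA and SLC2A3, triose phosphate isomerase (TPI1) at -0.28 (lost without siRNA replicate 2, limma adjusted p up to 0.0622) and the lactate carrier SLC16A1 at 0.29 (lost without either siRNA column, limma adjusted p up to 0.0611). Of 21 cholesterol genes 2 rose and 3 fell (9.52% and 14.3%, near the shares of all genes), with 6 drops without mock replicate 1, 1 drop and 0 rises without siRNA replicate 1, and 1 rise without mock replicate 1 or siRNA replicate 2. DHCR7, the last enzyme of cholesterol synthesis, was at 23.8 and 27.4 (mock) and 17.4 and 16.5 (siRNA) (change -0.54, limma adjusted p = 0.000637), ACAT2 changed by -0.32 (lost without siRNA replicate 1, limma adjusted p up to 0.0571), STARD4 by 0.26 (lost without mock replicate 1 or either siRNA column, limma adjusted p up to 0.234) and SCD by 0.22 (lost without either siRNA column, limma adjusted p up to 0.188). Of 14 hypoxia genes 1 rose and 1 fell (7.14% each, beside 11.6% and 13.3% of all genes), INSIG2 by 0.42 and NDRG1 by 0.43. Of 22 p53 targets 5 rose and 3 fell (22.7% and 13.6%, beside 11.6% and 13.3% of all genes), with 2 rises without siRNA replicate 2 and 3 without mock replicate 2 or siRNA replicate 1. TRIAP1 was at 53.9 and 53.97 (mock) and 31.2 and 30.01 (siRNA) (change -0.78, limma adjusted p = 2.73e-05) and PHLDA3 rose by 0.39. FAS changed by 0.38 (lost without mock replicate 1 or siRNA replicate 2, limma adjusted p up to 0.152) and FDXR by -0.37 (lost without mock replicate 2 or siRNA replicate 1, limma adjusted p up to 0.185).

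Of 11 genes in a list of YAP and TEAD targets, 5 rose and 2 fell (45.5% rose, beside 11.6% of all genes, median 0.08). Fewer rose with any 1 column left out. The list also holds YAP1 and TEAD1 themselves, so it is not made of target genes alone. DLC1 was at 5.87 and 5.97 (mock) and 8.65 and 8.63 (siRNA) (change 0.50) and WWC1 (KIBRA) at 6.97 and 7.42 (mock) and 4.55 and 4.81 (siRNA) (change -0.51). YAP1 changed by 0.37 (lost without siRNA replicate 1, limma adjusted p up to 0.0937) and TEAD1 by -0.28 (lost without mock replicate 1 or either siRNA column, limma adjusted p up to 0.153). Of 22 Wnt genes 4 rose and 4 fell (18.2% each, beside 11.6% and 13.3% of all genes). The rises were 1 without either siRNA column and 2 without mock replicate 2, and the drops were 1 without mock replicate 2 and 2 without siRNA replicate 2. The calls included LGR4 at -0.49, NKD2 at -0.55 (lost without mock replicate 2 or siRNA replicate 2, limma adjusted p up to 0.144) and LRP6 at 0.32 (lost without mock replicate 2 or either siRNA column, limma adjusted p up to 0.0847). Of 16 tetraspanins 2 rose and 4 fell (12.5% and 25%, beside 11.6% and 13.3% of all genes), and 2 fell without siRNA replicate 1. TSPAN14 was at 11.01 and 12.7 (mock) and 6.41 and 6.54 (siRNA) (change -0.75) and CD9 at 33.8 and 33.3 (mock) and 18.7 and 20.5 (siRNA) (change -0.73), both with siRNA below mock, whereas TSPAN12 rose and TSPAN13 changed by 0.26 (lost without either siRNA column, limma adjusted p up to 0.21).

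Of 23 splicing regulators 3 rose and 3 fell (13% each, beside 11.6% and 13.3% of all genes), and 0 rose without either siRNA column or without centring. WBP11 and MBNL1 were among the drops and HNRNPF at 0.21 (lost without either siRNA column, limma adjusted p up to 0.255) among the rises. Of 21 mTORC1 and autophagy genes 1 rose, RRAGD (0.55), and 0 fell (4.76% rose, beside 11.6% and 13.3% of all genes). Of 22 small-subunit processome and UTP14 genes, WDR36 rose (0.33, lost without siRNA replicate 1, limma adjusted p up to 0.0508) and RRP9 fell (-0.39). That is 4.55% of the processome list in each direction, below the 11.6% and 13.3% of all genes. Of 330 zinc finger genes named ZNF, 29 rose and 19 fell (8.79% and 5.76%), shares below those of all genes. The rises were 12 without mock replicate 2, 14 and 18 without siRNA replicates 1 and 2, and the drops were 12 without mock replicate 2 and 8 without siRNA replicate 1. ZNF238, a transcriptional repressor, was at 11.2 and 11.3 (mock) and 5.75 and 5.88 (siRNA) (change -0.82, limma adjusted p = 7.51e-05), ZNF296 changed by -0.54 (lost without mock replicate 2, limma adjusted p up to 0.257), ZNF404 by 0.55 and ZNF670 by 0.46 (lost without mock replicate 1, limma adjusted p up to 0.0659). Both snoRNA host genes in the table, GNB2L1 among them, did not pass, and GNB2L1 did without mock replicate 1 (change -0.12, limma adjusted p = 0.0437). Of the 12 HEK293 markers, CHGA (0.69) and CDH2 (0.28, lost without either siRNA column, limma adjusted p up to 0.148) rose and KRT19 (-0.38) and GATA2 (-0.37, lost without mock replicate 2 or siRNA replicate 2, limma adjusted p up to 0.224) fell. That is 16.7% of the 12 markers in each direction, beside 11.6% and 13.3% of all genes. The 12 summed to 376 and 424 in mock and 386 and 381 after siRNA.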

How the data were processed

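The authors deposited 1 table of a normalised expression signal per gene for 12 columns, in a unit its header does not name, with half-lives per gene that they computed, also with no unit in the header and used here as log2 changes relative to the median gene. Per the labels, poly(A)+ RNA was sequenced on a HiSeq instrument, and the submitters' processing notes name TopHat2 2.06 and hg18. The values are not counts, so depth is unknown.

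From these values, log2(value + 1) was centred on the median of each column and tested with limma 3.58.1 (R 4.3.3, mean-variance trend) over all 7682 genes with no low-value filter, the 2 siRNA against the 2 mock columns. P-values were adjusted by Benjamini-Hochberg, threshold 0.05. The test of total minus labelled change used the same model over both fractions. The script was tested on simulated data. Headers share replicate numbers, but no source states a pairing.

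Genes named by a fixed rule are MOV10, UPF1, the 15 largest rises and drops past the test, and the 5 most abundant called each way. The rule adds the 2 largest called each way per list (where none passed, its most abundant member). It also adds the 5 largest rises and drops that differed from labelled RNA. Other genes in the text, such as PSAT1, DDX6 and HSPA5, were chosen without a fixed rule. Statements below on named genes cover those of the rule. The 15 rises and 15 drops also had to show no overlap between siRNA and mock columns. The genes of the comparison, lists and sequence letters were chosen with earlier results of these data known. 3′ UTRs came from GENCODE release 29 on GRCh38, matched by current (7171) or older (399) symbol, and miRNAs from RefSeq. 10 symbols turned into dates and 4 snoRNA symbols were counted but not named. Results on some items are not reported here.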

Additional observations from a re-analysis of the deposited data

Results flagged for a closer look

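Between MOV10 siRNA and mock, total RNA and labelled RNA changed unequally in part of the genes by limma's test of the difference. The difference (total minus labelled) was above 0 in 528 genes and below 0 in 565, with both fractions taken from the same cells. The 5 largest drops of total RNA that differed were JPH3 at -5.12, ZCCHC12 at -0.71, UBE2MP1 at -1.46, CDC42EP1 at -1.46 and MOV10 at -1.37. The 5 largest rises that differed were SCG3 at 0.47, TSPAN12 at 0.46, CMPK1 at 0.73, FAM135A at 0.73 and PHTF2 at 0.82. JPH3 passed the test in opposite directions in the 2 fractions, and none of the other 9 did. The values of JPH3 are uncertain, as stated above.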

How the results depend on the processing

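No named gene that passed changed direction under the alternatives run. PODXL, which did not pass, ranged from -0.05 to 0.04. The uncentred median change of -0.0134 was 0.0288 without mock replicate 2. With quantile normalization 952 rose and 941 fell, so rises exceeded drops. With a mean of 20 or more (2775 genes tested), 362 rose and 419 fell, with 18 lower and 0 higher by 1 log2 unit, and 119 lower and 29 higher by 0.5. Without centring 528 rose and 841 fell, all 528 and 839 of them among the main calls. With no pseudocount 4 genes were higher by 1 and 185 by 0.5, and with a pseudocount of 0.1, 4 and 179. Leaving out 1 column gave 448 (without siRNA replicate 1) to 1055 rises, 709 to 1172 drops, 47 to 50 genes lower by 1, 1 to 4 higher by 1, and 287 to 450 genes above and 342 to 424 below 0 for total minus labelled. There the lone column is assumed to vary as the other pair does. In the shortest annotated 3′ UTR, TACTGCA was in 12% of genes that fell, 2.84% that rose and 4.78% of all. With the replicate number as a block, 1239 genes rose and 1278 fell, including all 891 and 1023 main calls, and 473 and 532 differed above and below 0 from labelled RNA. Same-numbered columns had deviations correlated at 0.0247 over genes. That value cannot show whether they shared a culture or a batch. Of the called list members and named genes, 134 of 280 passed with each column left out and 146 did not, with absolute changes up to 0.72 among the latter. Among named genes, 27 lost the call without centring, 18 without the trend, 34 and 34 without siRNA replicates 1 and 2, 19 and 5 without mock replicates 2 and 1, 12 with the spread pooled over all groups and 7 with quantile normalization. Causes of these differences were not tested. Depth is unknown, so its limits could not be set.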
